A study of Mus musculus with 28 samples.

Results

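The 10 genes Atf4, Ddit3, Ddit4, Asns, Chac1, Trib3, Sesn2, Slc7a5, Slc3a2 and Slc7a11, all of the ATF4 amino acid stress response, were followed through 28 RNA-seq libraries of O9-1 cells, a mouse line of cranial neural crest origin. They were found by symbol in the count table and are 10 of the 54429 gene identifiers counted. Cells were kept at 21% O2 (normoxic, 4 libraries per group) or at 0.5% O2 (hypoxic, 3 libraries per group), and at each oxygen level they were proliferating or in chondrocyte, osteoblast or smooth muscle conditions. The proliferating groups were grown in DMEM conditioned by STO feeder cells, with 15% FCS, 0.1 mM non-essential amino acids, 55 µM beta-mercaptoethanol, 25 ng/ml bFGF and 5 ng/ml LIF. Osteoblast groups spent 10 days in alpha-MEM with 10% FCS, 10 mM beta-glycerophosphate, 0.1 µM dexamethasone and 100 ng/ml BMP-2. Chondrocyte groups had 3 days of that osteogenic medium and then 7 days as micromasses on matrigel in alpha-MEM with 5% FCS, ITS, 0.1 µM dexamethasone, 10 ng/ml TGF-beta3 and 50 ng/ml BMP-2. Smooth muscle groups spent 3 days in DMEM with 10% FCS. Medium and time therefore differ between the culture conditions along with cell state, and these cannot be told apart. All groups are 1 cell line, and the labels do not say that libraries of a group came from separate cultures, so p-values measure the spread between these libraries, which may be technical.

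ATF4 is a transcription factor whose mRNA is translated preferentially when the initiation factor eIF2 is phosphorylated by kinases that sense amino acid shortage, unfolded proteins, haem deficiency or double-stranded RNA. It binds C/EBP-ATF response elements with C/EBP partners and raises amino acid uptake and synthesis, together with genes that slow growth or feed back on the response. Because much of its regulation is translational, the mRNA levels given here are not levels of ATF4 protein or activity, which were not measured. Among the genes followed, Ddit3 encodes the transcription factor CHOP, Ddit4 and Sesn2 encode inhibitors of mTORC1 signalling, and Trib3 encodes a pseudokinase that restrains ATF4 and AKT. Asns makes asparagine, Chac1 degrades glutathione, Slc7a5 and Slc3a2 encode the light and heavy chains of the leucine transporter LAT1-4F2hc, and Slc7a11 is the cystine importer, which also pairs with Slc3a2. Ddit4 is in addition a well known target of the hypoxia-inducible factor HIF-1, and Slc7a11 of the antioxidant factor NRF2.

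Promoter sequence from the RefSeq table (assembly GRCm38.p6, 250 bases before to 50 after each start site) was found for 9 of the 10 genes, all but Slc7a5. The C/EBP-ATF core TGATGNAA, searched on both strands, is in 3.97% of the 32851 promoters of the table (1304 of them), and among the 9 genes it is in those of Asns, Chac1, Trib3 and Slc7a11. The windows below are shown because these 4 genes carry the ATF4 recognition letters. Capitals mark the match, which in Chac1, Trib3 and the second Slc7a11 match is the reverse complement of the core. The last pair shows the HIF core letters in the promoter of Ddit4, which rose at 0.5% O2 in 3 of the 4 culture conditions.
Asns, chr6:7693214-7693243, minus strand: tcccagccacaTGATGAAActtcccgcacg
Chac1, chr2:119351038-119351067, plus strand: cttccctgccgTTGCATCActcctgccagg
Trib3, chr2:152344028-152344057, minus strand: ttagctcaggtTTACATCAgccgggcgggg
Slc7a11, first match, chr3:50443661-50443690, minus strand: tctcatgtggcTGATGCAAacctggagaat
Slc7a11, second match, chr3:50443642-50443671, minus strand: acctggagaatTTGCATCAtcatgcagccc
Ddit4, ACGTG, chr10:59951942-59951968, minus strand: gaacgttgcgaACGTGcgcccggtgcc
Ddit4, GCGTG, chr10:59951870-59951896, minus strand: acctggaggggGCGTGgcctcgccggg

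Counted from the start site as base 1, the first base of the match was at -23 in Asns, -193 in Chac1, 15 in Trib3 and -66 and -47 in Slc7a11, where the 2 matches lie on opposite strands. The Ddit4 matches to the HIF cores ACGTG and GCGTG began at -187 and -115. On either strand, ACGTG is in 19.6% and GCGTG in 32.4% of all promoters of the table, so a match to these short cores is common. ACGTG was also present in the promoters of Asns, Slc3a2 and Ddit3, and GCGTG in those of Atf4, Ddit3, Asns, Chac1 and Trib3. The antioxidant element TGACNNNGC, in 12.4% of promoters, matched in Asns and Sesn2. A match describes letters only and is neither a site nor a cause.

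Gene positions below are from GENCODE M21 on GRCm38 (mm10). Atf4 (ENSMUSG00000042406) is at chr15:80255184-80257541, plus strand, and Chac1 (ENSMUSG00000027313) at chr2:119351229-119354381, plus strand. On the minus strand lie Ddit4 (ENSMUSG00000020108, chr10:59949669-59951834), Asns (ENSMUSG00000029752, chr6:7675169-7693254) and Trib3 (ENSMUSG00000032715, chr2:152337422-152344032). The remaining genes, Sesn2 (ENSMUSG00000028893, chr4:132492032-132510501), Slc7a5 (ENSMUSG00000040010, chr8:121881150-121907694), Slc3a2 (ENSMUSG00000010095, chr19:8706882-8723369) and Slc7a11 (ENSMUSG00000027737, chr3:49892526-50443614), are on the minus strand as well. Sesn2 overlaps Gm12981 on its own strand, Slc7a5 overlaps Gm20388 on the other, and Slc7a11 overlaps 5 predicted genes, so reads shared with these may be assigned to either. The symbol Ddit3 was matched to ENSMUSG00000116429 alone, a model of 105 exon bases inside the Ddit3 locus, which had 0 counts in all 28 libraries. The main Ddit3 identifier was not analysed here, so the 0 says nothing about the level of CHOP mRNA, and the results below are for the other 9 genes.

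Library totals were between 19.87 M and 64.69 M counts (M, 1e+06), and all 9 genes passed the filter on low counts in every comparison. The 3 hypoxic smooth muscle libraries stood apart: mitochondrial ribosomal RNA took 11.62% to 13.31% of their counts against 0.02522% to 0.08888% in the other 25, and their mean TMM factor (trimmed mean of M values, the scaling used) was 0.518. Without that scaling, by library size alone, the median change of all genes tested moved to -1.49 on the log2 scale between hypoxic and normoxic smooth muscle groups, to -1.35 between hypoxic smooth muscle and hypoxic proliferating groups, and to -1.37 in the smooth muscle interaction, and 15.6%, 15% and 16.6% of calls were then higher against 46.8%, 48.3% and 49.6%. The same split fell from 46.9% to 31.8% for chondrocyte and from 49.6% to 36.9% for osteoblast cultures between oxygen levels (median -0.19 in the latter). Against proliferating cells it fell from 50.3% to 34.7% for normoxic chondrocyte cultures (median -0.35), from 50.2% to 31.8% for hypoxic chondrocyte cultures (median -0.35) and from 50.8% to 38.2% for hypoxic osteoblast cultures (median -0.23). Levels below are CPM, counts scaled per M of TMM-adjusted library size. In bulk RNA, fewer cells of a type and less RNA per cell cannot be told apart.

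Marker genes bear on how the group names are read. Chondrocyte markers (7 genes, Col2a1 and Acan among them) summed to 2890 to 8820 CPM in normoxic and 857 to 1290 CPM in hypoxic chondrocyte libraries, the latter with Matn1 at 0, against 104 to 143 CPM in normoxic proliferating libraries. The 7 osteoblast markers summed to 1040 to 1230 CPM in normoxic osteoblast libraries, below the 1970 to 2700 CPM of normoxic proliferating libraries, most of it Spp1 (mean 1010 against 2100 CPM). Of the others, Sp7 (12.1 against 0.149 CPM), Alpl (11.4 against 0.0331), Ibsp (1.13 against 0) and Bglap (0.121 against 0.027) had higher means in the normoxic osteoblast than in the normoxic proliferating group, Dmp1 a lower one (1.15 against 3.18), and Runx2 was at 63.5 against 63.9 CPM. The normoxic chondrocyte group held more Sp7 (170 CPM), Alpl (265 CPM) and Ibsp (1170 CPM) than the normoxic osteoblast group, whose smooth muscle markers summed to 3560 to 5100 CPM, beside 3530 to 3990 CPM in normoxic smooth muscle libraries. Smooth muscle markers (6 genes) summed to 3530 to 3990 CPM in normoxic and 94.8 to 119 CPM in hypoxic smooth muscle libraries. The latter is near the 94.1 to 103 CPM of normoxic proliferating libraries, so the hypoxic smooth muscle group lacks the contractile genes its name implies. Of the neural crest markers, Sox10 and Foxd3 were at 0 in every group but normoxic smooth muscle for Sox10. Blood cell markers (4 genes) summed to 33 to 36.5 CPM in hypoxic smooth muscle libraries and to at most 5.41 CPM elsewhere, with Hbb-bs and Cd3e at 0. In the hypoxic smooth muscle group nearly all of the sum was Cd68 (mean 35 CPM). Ptprc was at 0.0927 CPM there, below the 0.181 CPM of hypoxic proliferating cells. The part of cell composition in the results below was not tested.

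At 0.5% O2, proliferating cells held more mRNA of the growth-restraining genes Ddit4, Trib3 and Sesn2 and of Chac1, a little more Atf4 and Slc3a2, and less Slc7a5. Smooth muscle markers summed to 191 to 195 against 94.1 to 103 CPM, with Smtn higher (mean 153 against 48.9) and Acta2 lower (29.4 against 41.8). Neuron and glia markers summed to 14.8 to 17.6 against 3.5 to 8.57 CPM. Chondrocyte markers summed to 207 to 221 against 104 to 143 CPM. The part of these in the changes was not tested. Of the 9 genes, Ddit4 had the largest rise. It was 15.2, 14.2, 15 and 21.2 CPM in the normoxic and 155.6, 163 and 156.3 CPM in the hypoxic proliferating libraries. Every hypoxic library was far above every normoxic one, a 10.1-fold rise (log2 3.34, SE 0.13, adjusted p = 2.51e-08). Trib3 was at 6.4, 8.16, 6.96 and 15.2 CPM at 21% O2 and at 64.3, 62.1 and 72.2 CPM at 0.5% O2. The groups did not overlap although normoxic replicate 4 was well above the other normoxic libraries, and the fold was 7.61 (log2 2.93, SE 0.30, adjusted p = 2.29e-04). Sesn2 was at 19.7, 22.8, 21.7 and 29.1 against 44.1, 40.1 and 42.7 CPM, again with no overlap (log2 0.92, SE 0.11, adjusted p = 1.26e-05).

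In the same cells Atf4 itself rose by a smaller factor. Its levels were 295, 308, 307 and 325 CPM at 21% O2 and 344, 362 and 385 CPM at 0.5% O2. The groups did not overlap, and the rise was 1.22-fold (log2 0.29, SE 0.05, adjusted p = 2.58e-04). Chac1, at 12, 12.1, 10.4 and 15 CPM at 21% O2, reached 31.1, 29.3 and 28.6 CPM at 0.5% O2, a 2.5-fold rise with no overlap (log2 1.32, SE 0.11, adjusted p = 1.08e-07). Asns, its fellow metabolic enzyme, was at 115.1, 121, 120.1 and 158 CPM against 137, 134 and 142 CPM. The Asns groups overlapped because of normoxic replicate 4 and the change was not called (log2 0.15, 95% interval -0.09 to 0.39, adjusted p = 0.233). Without that replicate Asns was called at a log2 change of 0.26 (adjusted p = 5.38e-06).

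The transporter genes moved apart from each other. Slc7a5 was at 217, 234, 219 and 226 CPM at 21% O2 and lower in every hypoxic library, at 146, 152 and 141 CPM (log2 -0.55, SE 0.05, adjusted p = 2.12e-07). Its partner Slc3a2 rose from 156, 163, 160.3 and 171 to 199, 197 and 206 CPM, with no overlap (log2 0.36, SE 0.05, adjusted p = 1.68e-05). Slc7a11 was at 26.8, 28.4, 29.3 and 57.7 CPM against 51.2, 50.2 and 58.4 CPM. Normoxic replicate 4 lay among the hypoxic libraries, and the change was not called (log2 0.65, 95% interval -0.15 to 1.44, adjusted p = 0.128). Without it the change was 0.97 and called (adjusted p = 4.93e-13), as it was with all 8 groups in 1 fit (0.59, adjusted p = 0.0351). The median change of the 9 genes was 0.65 on the log2 scale, beside 0.01 for all genes tested. In all, 6 of 9 genes were called higher where 33.1% of the 14156 genes tested were, 1 lower where 32.3% were, and 7 in either direction where 65.4% were. With 1 library left out the count was between 7 and 9, the latter without normoxic replicate 4. Of all genes, 8578 to 9945 were then called, against 9261 in the main fit.

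**Figure D1:**
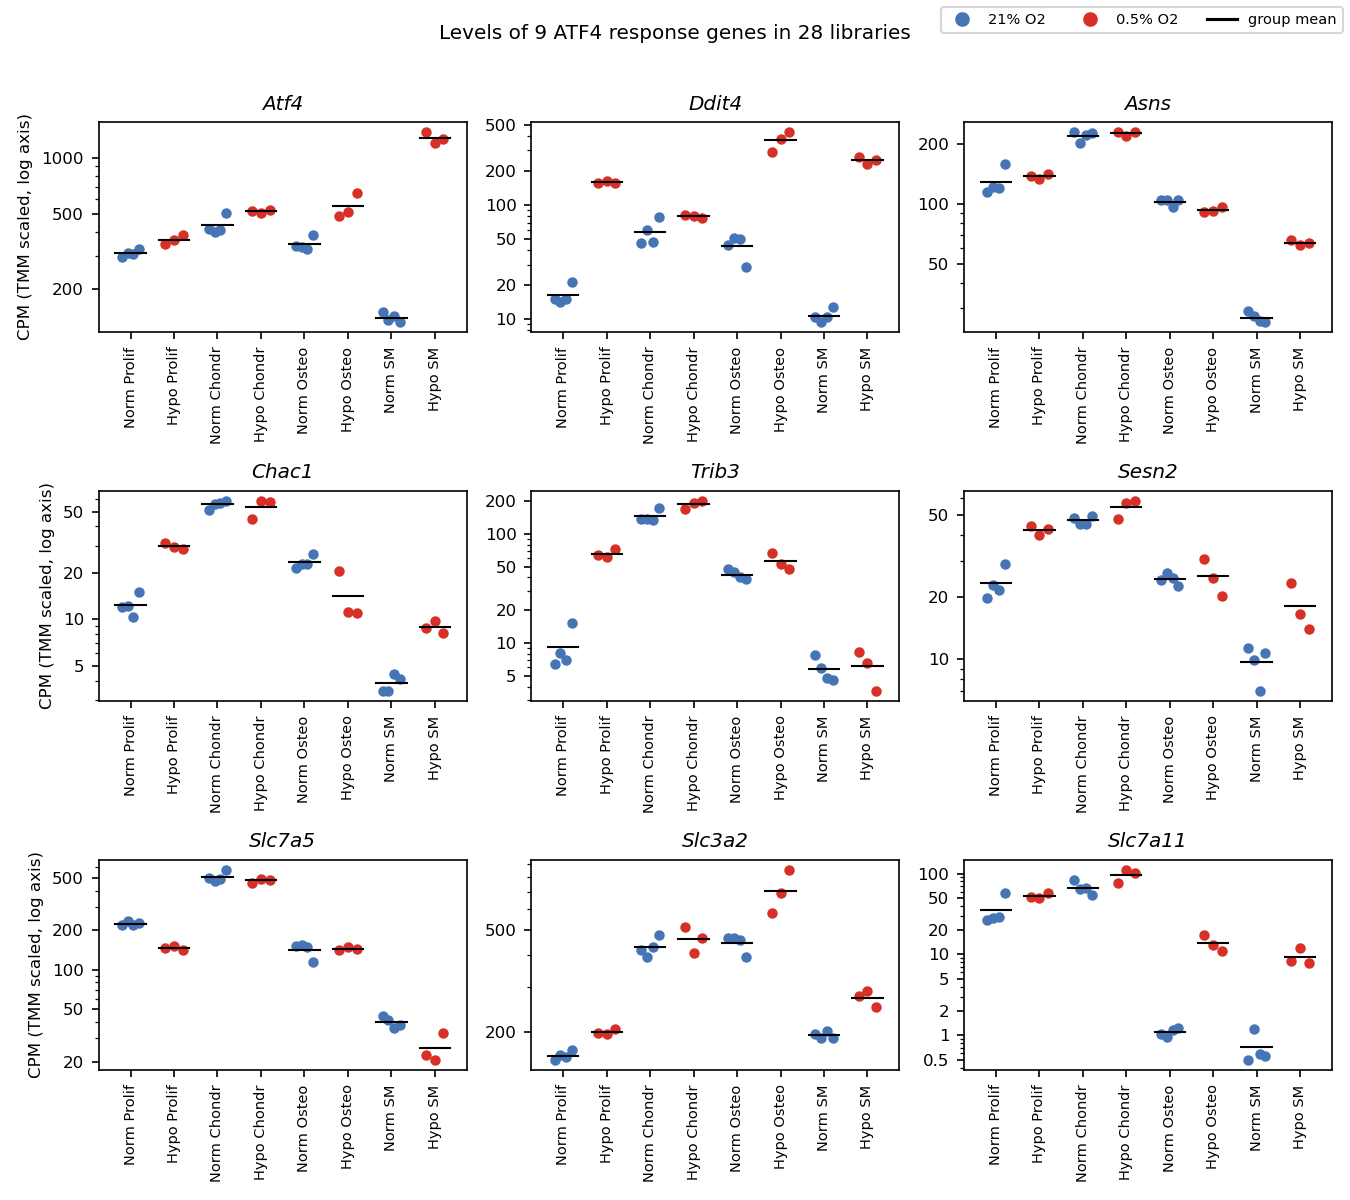
Level of 9 genes in each library, in TMM-scaled CPM on a log axis that differs between panels, for normoxic (blue) and hypoxic (red) groups, with the group mean as a black line. Ddit4 is higher in every hypoxic proliferating, osteoblast and smooth muscle library than in their normoxic counterparts, Atf4 is highest in the 3 hypoxic smooth muscle libraries (1200 to 1376 CPM), and Trib3 is highest in chondrocyte libraries of either oxygen level.

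In chondrocyte cultures the same step in oxygen left most of these genes without a called change. Trib3 alone was called, with 136, 136.4, 135.2 and 172 CPM at 21% O2 and 169, 190.1 and 202 CPM at 0.5% O2. The groups overlapped through normoxic replicate 4 and the rise was 1.29-fold (log2 0.36, SE 0.10, adjusted p = 0.0214). The call was lost without normoxic replicate 2 (log2 0.34, adjusted p = 0.0646), normoxic replicate 3 (0.33, 0.0662), hypoxic replicate 2 (0.35, 0.0692) or hypoxic replicate 3 (0.30, 0.104), with library size alone (0.29, 0.0556) and with all 8 groups in 1 fit (0.37, 0.259). Ddit4 was at 46.8, 60.7, 46.9 and 79.1 CPM against 82.5, 79.5 and 77.7 CPM. Its groups overlapped, and the change was not called (log2 0.45, 95% interval 0.04 to 0.85, adjusted p = 0.114).

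Atf4, at 419, 404, 413 and 504 CPM in normoxic and 522, 506 and 525 CPM in hypoxic chondrocyte libraries, did not overlap between groups but missed the threshold (log2 0.24, adjusted p = 0.0549). Without normoxic replicate 4, the highest of its group, Atf4 was called at a log2 change of 0.32 (adjusted p = 0.00309) and Ddit4 at 0.63 (adjusted p = 8.18e-04). Atf4 was also called with DESeq2 (0.25, adjusted p = 0.03), limma-voom (0.25, 0.0471), no filter on low counts (0.25, 0.0233) and all 8 groups in 1 fit (0.25, 0.0437), and Ddit4 (0.45, 0.0293) and Slc7a11 (0.52, 0.00633) with DESeq2. Slc7a11 stood at 83.6, 65.1, 67 and 53.9 against 76.7, 112 and 102 CPM, with overlap (log2 0.52, adjusted p = 0.0683). It was called without normoxic replicate 1 (0.64, adjusted p = 0.0172) or hypoxic replicate 1 (0.66, 0.0191), and Sesn2 was called without hypoxic replicate 1 (0.30, 0.0219). Leaving out 1 library took these changes no lower than 0.21 (Atf4), 0.35 (Ddit4), 0.40 (Slc7a11) and 0.15 (Sesn2). Asns (201 to 228 against 219.8 to 230.3 CPM), Chac1 (51 to 58.4 against 44.5 to 58.9 CPM), Sesn2 (45 to 49.3 against 47.7 to 58.6 CPM), Slc7a5 (474 to 578 against 461 to 492 CPM) and Slc3a2 (393 to 475 against 407 to 512 CPM) overlapped and were not called. Their 95% intervals reached from -0.27 (Chac1) and -0.28 (Slc7a5) at the lowest to 0.40 (Sesn2) at the highest on the log2 scale. Over all 9 genes the median change was 0.21, beside -0.01 for all genes tested. Thus 1 of 9 genes was called higher, where 10.4% of 14205 genes tested were, and none lower, where 11.8% were, or 1 in either direction where 22.2% were. By the edgeR quasi-likelihood test the count was between 0 and 3 with 1 library left out. Of all genes, 2091 to 3359 were then called, against 3157 in the main fit. The count of the 9 genes was 4 with DESeq2 and 2 with limma-voom. The shares of all genes called in those fits are not given here.

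In osteoblast cultures Ddit4 and the cystine importer Slc7a11 rose steeply at 0.5% O2, Atf4 and Slc3a2 rose moderately, and Chac1 fell. Cell type markers moved along with these genes. The 7 osteoblast markers summed to 1040 to 1230 CPM at 21% and 4980 to 5280 CPM at 0.5% O2. The 6 smooth muscle markers summed to 3560 to 5100 and 2160 to 2430 CPM. The 5 adipocyte markers summed to 2.6 to 6.09 and 20 to 23.1 CPM, nearly all of it Fabp4 (mean 3.74 and 21 CPM). Of the rest, Plin1 was at 0 and 0.0458 CPM, Cfd at 0.0197 and 0, and Adipoq and Lep at 0 in both groups. The part of these markers in the changes was not tested. Ddit4 was at 44.5, 50.9, 50.1 and 28.6 CPM at 21% O2 and at 293, 381 and 439.6 CPM at 0.5% O2. All hypoxic libraries were several-fold above all normoxic ones (8.53-fold, log2 3.09, SE 0.22, adjusted p = 7.79e-06). Slc7a11 was nearly silent at 21% O2, at 1.05, 0.95, 1.15 and 1.22 CPM (24 to 38 counts), and reached 17.5, 13 and 11 CPM at 0.5% O2. The rise was 12.6-fold without overlap (log2 3.65, SE 0.20, adjusted p = 1.23e-06). Atf4 was at 338, 335, 325 and 385 against 487, 514 and 650.1 CPM, with no overlap (log2 0.67, SE 0.12, adjusted p = 0.0013).

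Slc3a2, at 465, 466, 456 and 392 CPM in normoxic and 578, 692 and 854 CPM in hypoxic osteoblast libraries, rose to a like degree (log2 0.67, SE 0.13, adjusted p = 0.00246). Its light chain partner Slc7a5 was not called, at 151, 155, 149 and 115 against 142, 149 and 144 CPM, with overlap (log2 0.02, 95% interval -0.22 to 0.26, adjusted p = 0.866). Chac1 was lower in hypoxic libraries, at 21.6, 22.8, 23 and 26.7 against 20.6, 11.1 and 11 CPM. Hypoxic replicate 1 was nearly as high as the normoxic group, but the groups did not overlap (log2 -0.73, SE 0.22, adjusted p = 0.0201). The call was lost without hypoxic replicate 2 (log2 -0.57, adjusted p = 0.0835) or replicate 3 (log2 -0.57, adjusted p = 0.0875).

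Trib3 in osteoblast cultures was at 47.4, 44.4, 39.9 and 38.3 CPM against 67.2, 53.5 and 47.9 CPM. The lowest hypoxic library was just above the highest normoxic one (log2 0.40, SE 0.13, adjusted p = 0.0224), and the call was lost without normoxic replicate 3 (0.37, adjusted p = 0.0649), without hypoxic replicate 1 (0.26, adjusted p = 0.0859), with library size alone (0.25, adjusted p = 0.125) and with all 8 groups in 1 fit (0.40, adjusted p = 0.122). Asns, at 105, 104.5, 96.4 and 104.7 against 91.4, 92.2 and 96.3 CPM, did not overlap by a narrow margin and was not called (log2 -0.14, adjusted p = 0.138), though it was called lower with library size alone (log2 -0.29, adjusted p = 0.00762). Sesn2, at 22.7 to 26 against 20.3 to 30.5 CPM, overlapped and was not called (log2 0.04, 95% interval -0.26 to 0.34). The 9 genes had a median change of 0.40, beside -0.03 for all genes tested. Thus 5 of 9 genes were called higher where 27% of 14533 genes tested were, 1 lower where 27.3% were, and 6 in either direction where 54.3% were.

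Of the 4 culture conditions, smooth muscle held the largest estimated change in Atf4 between oxygen levels. Atf4 was at 149.6, 136, 143 and 132 CPM at 21% O2, the lowest levels of any group, and at 1376, 1200 and 1252 CPM at 0.5% O2, the highest of any group. The fold was 9.5 (log2 3.25, SE 0.08, adjusted p = 2.4e-14). Ddit4 was at 10.5, 9.37, 10.5 and 12.7 CPM against 261, 229 and 246 CPM, a 23.8-fold rise without overlap (log2 4.58, SE 0.11, adjusted p = 1.71e-14). Slc7a11 was at 0.49, 1.21, 0.58 and 0.55 CPM (16 to 45 counts) against 8.25, 12 and 7.78 CPM (84 to 120 counts), a 13.5-fold rise without overlap (log2 3.76, SE 0.35, adjusted p = 1.11e-07). By library size alone these 3 changes were still called higher, those of Atf4 and Slc7a11 at 1.88 and 2.39 on the log2 scale.

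Rises of other genes between the smooth muscle groups were smaller than the shift that the scaling removes. Asns was at 29.1, 27.4, 25.8 and 25.5 against 66, 62.3 and 63.5 CPM, with no overlap on the TMM scale (log2 1.31, SE 0.09, adjusted p = 4.86e-09), and at a log2 change of -0.06 (adjusted p = 0.577) by library size alone. Chac1 was at 3.4, 3.41, 4.41 and 4.11 against 8.78, 9.68 and 8.15 CPM (log2 1.27, SE 0.21, adjusted p = 5.15e-05), and at -0.10 (adjusted p = 0.668) by library size alone. Sesn2 was at 11.4, 9.91, 6.99 and 10.7 against 23.5, 16.6 and 14 CPM (log2 0.96, SE 0.20, adjusted p = 5.03e-04), and at -0.41 (adjusted p = 0.0833) by library size alone. In each of these genes every hypoxic library was above every normoxic one in TMM-scaled CPM. Without the scaling the estimate was negative and not called. Slc3a2, at 198, 189.7, 203 and 191 against 275, 289.9 and 251 CPM, rose by the main scaling (log2 0.54, SE 0.07, adjusted p = 1.01e-05) and fell by library size alone (-0.83, adjusted p = 1.1e-07).

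Slc7a5 was the one gene lower in hypoxic smooth muscle cultures, and it was lower under either scaling (-1.97 by library size alone). Its levels were 44.2, 41.6, 36 and 37.9 CPM against 22.6, 20.5 and 32.8 CPM, with no overlap (log2 -0.60, SE 0.15, adjusted p = 0.00191). Trib3 did not share the rise of Atf4, at 7.81, 5.88, 4.79 and 4.64 against 8.25, 6.58 and 3.61 CPM. Its groups overlapped on the TMM scale (log2 0.16, 95% interval -0.44 to 0.76, adjusted p = 0.61), and by library size alone it was lower (-1.202, adjusted p = 0.00131). The median change was 1.27, beside -0.12 for all genes tested. With TMM, 7 of 9 genes were called higher where 35.4% of 14914 genes tested were, 1 lower where 40.2% were, and 8 in either direction where 75.6% were. Because all 3 libraries of the hypoxic smooth muscle group carry the high mitochondrial ribosomal share, the share and the group cannot be told apart.

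**Figure D2:**
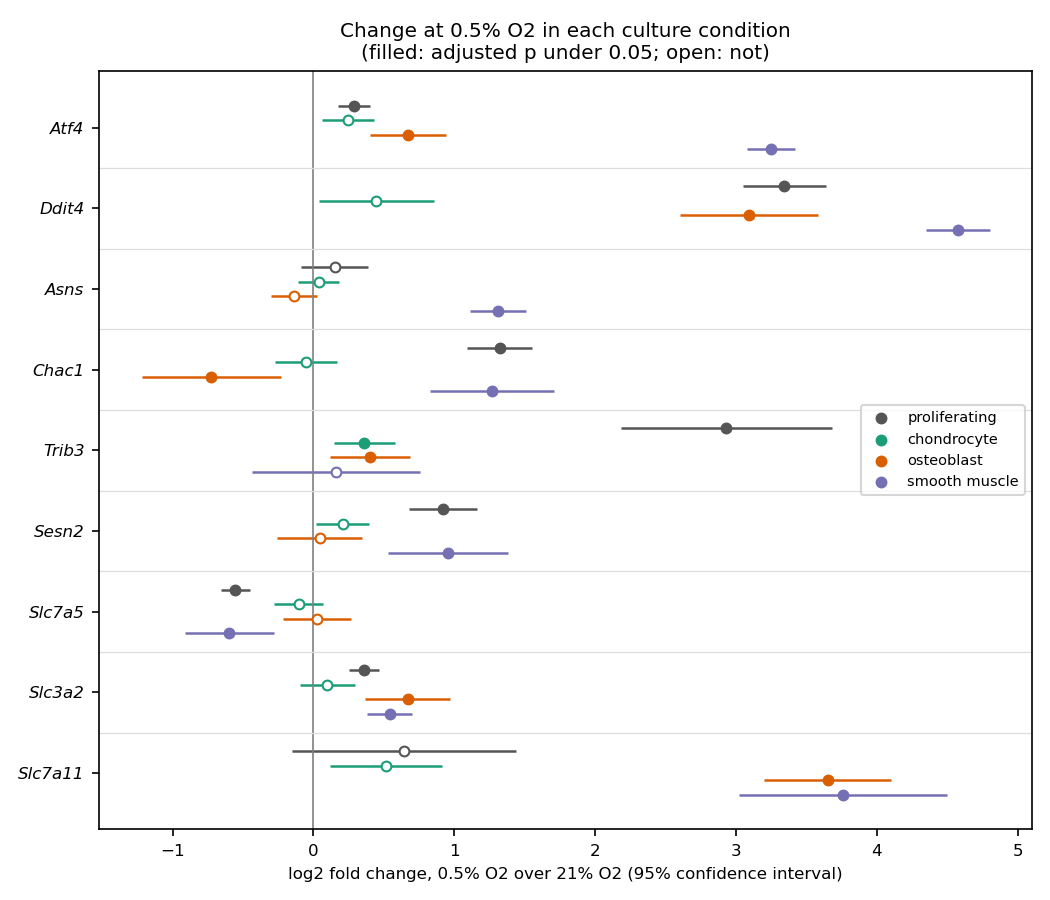
Log2 fold change of 9 genes at 0.5% over 21% O2, with 95% confidence intervals, in proliferating, chondrocyte, osteoblast and smooth muscle cultures, where filled points have an adjusted p under 0.05 and open points do not. Ddit4 lies near 3 to 4.6 in all but chondrocyte cultures (0.45), Atf4 is far to the right in smooth muscle cultures alone (3.25), and Slc7a5 is at or below 0.02 throughout.

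Whether the oxygen effect itself differed from that in proliferating cells was tested by an interaction term, the hypoxic minus normoxic difference in a lineage less that in proliferating cells. The 3 interactions share the proliferating libraries. In chondrocyte cultures the oxygen effect was smaller for Ddit4 (log2 -2.88, SE 0.25, adjusted p = 1.17e-06), Trib3 (-2.55, SE 0.32, adjusted p = 5.18e-05), Chac1 (-1.36, SE 0.15, adjusted p = 1.59e-06) and Sesn2 (-0.70, SE 0.15, adjusted p = 9.07e-04). It was higher for Slc7a5 (0.46, SE 0.09, adjusted p = 4.63e-04), which fell in proliferating and not detectably in chondrocyte cultures. The term for Atf4 was -0.03 (95% interval -0.25 to 0.18). That for Slc7a11 was -0.11 (95% interval -0.93 to 0.70, adjusted p = 0.843). It was between -0.45 without normoxic proliferating replicate 4 (adjusted p = 0.104) and 0.03 without hypoxic chondrocyte replicate 1 (0.971). Thus 1 of 9 genes had a higher term where 21.6% of 15310 genes tested did, 4 a lower one where 21.9% did, and 5 either where 43.5% did. The Asns term was not called (-0.10, adjusted p = 0.54). It was called without normoxic proliferating replicate 4 (-0.22, adjusted p = 0.0281) and was at -0.05 without replicate 1 of that group (0.772). The Slc3a2 term missed the threshold (-0.25, adjusted p = 0.0631) and was at -0.16 without hypoxic chondrocyte replicate 2 (0.21). Slc3a2 was called lower without normoxic proliferating replicate 4 (-0.28, adjusted p = 0.0395), without normoxic chondrocyte replicate 2 (-0.29, 0.0377) or without hypoxic chondrocyte replicate 1 (-0.33, 0.0142), and with DESeq2 (-0.29, 0.0214), DESeq2 size factors (-0.29, 0.028) or at least 10 counts required in every library (-0.28, 0.0283).

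In osteoblast cultures the oxygen effect on Slc7a11 exceeded that in proliferating cells by 3.05 on the log2 scale (SE 0.39, adjusted p = 1.64e-05), and that on Slc7a5 by 0.62 (SE 0.12, adjusted p = 3.11e-04). The term for Atf4 was 0.42 (SE 0.13, adjusted p = 0.0137) and missed the threshold with library size alone (0.30, adjusted p = 0.0721). The terms were negative for Trib3 (-2.47, SE 0.33, adjusted p = 2.88e-05), Chac1 (-2.01, SE 0.26, adjusted p = 1.17e-05) and Sesn2 (-0.83, SE 0.19, adjusted p = 0.0014). The Ddit4 term was not called (-0.20, 95% interval -0.78 to 0.38). It was between -0.04 without hypoxic osteoblast replicate 1 (adjusted p = 0.913) and -0.36 without normoxic osteoblast replicate 4 (0.16). With a replicate block it was called (-0.52, 0.00305), though the replicate numbers did not pair the samples. That fit also left out replicate 4 of both normoxic groups. The Slc3a2 term was just past the threshold (0.35, SE 0.14, adjusted p = 0.048) and its call was lost when any of 12 of the 14 libraries was left out, the lowest value being 0.20 without hypoxic osteoblast replicate 3 (adjusted p = 0.149), and also with library size alone (0.23, adjusted p = 0.175), DESeq2 (0.33, 0.0591), limma-voom (0.34, 0.0526), DESeq2 size factors (0.33, 0.0616) or at least 10 counts required in every library (0.29, 0.0864). The Asns term was not called (-0.25, adjusted p = 0.12) and was at -0.20 without normoxic proliferating replicate 1 (0.218). Asns was called lower without normoxic proliferating replicate 4 (-0.37, adjusted p = 0.00174) or with library size alone (-0.37, adjusted p = 0.0316). Of the 9 genes, 4 had a higher term where 28.9% of 15486 genes tested did, 3 a lower one where 25.3% did, and 7 either where 54.2% did.

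In smooth muscle cultures the oxygen effect on Atf4 exceeded that in proliferating cells by 3.00 (SE 0.09, adjusted p = 2.82e-17) and that on Slc7a11 by 3.14 (SE 0.49, adjusted p = 4.79e-05), while that on Trib3 was lower by an interaction of -2.71 (SE 0.44, adjusted p = 6.87e-05). These directions held under library size alone, with terms of 1.66 for Atf4 and 1.81 for Slc7a11. Ddit4 (1.28, adjusted p = 4.23e-07), Asns (1.198, adjusted p = 3.12e-08) and Slc3a2 (0.22, adjusted p = 0.0304) had positive terms with TMM and negative ones by library size alone (-0.05, -0.13 and -1.12). The Slc3a2 call was also lost without normoxic smooth muscle replicate 2 (0.20, adjusted p = 0.0572), hypoxic proliferating replicate 1 (0.20, 0.0817) or 2 (0.20, 0.0848), or hypoxic smooth muscle replicate 1 (0.21, 0.0535) or 2 (0.16, 0.0933), with no filter on low counts (0.15, 0.32) and with all 8 groups in 1 fit (0.17, 0.268). Chac1 (-0.01, 95% interval -0.43 to 0.40), Sesn2 (0.08, 95% interval -0.41 to 0.57) and Slc7a5 (-0.00, 95% interval -0.31 to 0.31) were not called with TMM. By library size alone these 3 terms were called lower (-1.34, -1.25 and -1.34). Of the 9 genes, 5 had a higher term where 34.9% of 15640 genes tested did, 1 a lower one where 35.5% did, and 6 either where 70.4% did.

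Placing cells in chondrocyte conditions at 21% O2 came with higher levels of all 9 genes than in proliferating cells. Markers of other cell types moved as well: smooth muscle markers summed to 2070 to 2520 against 94.1 to 103 CPM, neuron and glia markers (4 genes) to 53.9 to 85.4 against 3.5 to 8.57 CPM, and the osteoblast marker Ibsp had a mean of 1170 against 0 CPM. Their part in the changes was not tested. Trib3 rose most, from 9.18 ± 4.08 to 145 ± 18.2 CPM (SD, n = 4 each), a 16.8-fold change (log2 4.07, SE 0.27, adjusted p = 8.09e-07). Chac1 rose from 12.4 ± 1.89 to 55.5 ± 3.2 CPM (4.74-fold, adjusted p = 1.74e-09) and Ddit4 from 16.4 ± 3.24 to 58.4 ± 15.2 CPM (3.77-fold, adjusted p = 9.79e-06). The groups did not overlap in either gene. The transporter pair Slc3a2 (log2 1.47, SE 0.07) and Slc7a5 (1.27, SE 0.07), Sesn2 (1.09, SE 0.11), Asns (0.84, SE 0.10) and Atf4 (0.57, SE 0.08) rose as well, each without overlap. By library size alone the rises of Asns and Atf4 were 0.50 and 0.22 and still called. Slc7a11 rose from 35.6 ± 14.8 to 67.4 ± 12.2 CPM with overlapping groups (log2 1.002, SE 0.27, adjusted p = 0.00789), a call lost with library size alone (0.65, adjusted p = 0.0526). All 9 genes were called higher where 37.7% of 14360 genes tested were, and none lower where 37.2% were, or 9 in either direction where 74.9% were. The median change of the 9 genes was 1.26 on the log2 scale, beside -0.00 for all genes tested.

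Osteoblast conditions at 21% O2 split the genes. Smooth muscle markers summed to 3560 to 5100 against 94.1 to 103 CPM in proliferating cells and chondrocyte markers to 185 to 1480 against 104 to 143 CPM, and their part in the changes was not tested. Trib3 (log2 2.27, SE 0.26, adjusted p = 2.43e-05), Slc3a2 (1.51, SE 0.07, adjusted p = 4.66e-08), Ddit4 (1.47, SE 0.20, adjusted p = 8.53e-05) and Chac1 (0.98, SE 0.12, adjusted p = 4.71e-05) were higher than in proliferating cells. Slc7a11 fell from 35.6 ± 14.8 to 1.09 ± 0.12 CPM (SD, n = 4 each), to 0.0321 of its level (log2 -4.96, SE 0.31, adjusted p = 3.67e-07). Slc7a5 fell from 224 ± 7.55 to 143 ± 18.4 CPM (log2 -0.60, SE 0.09, adjusted p = 1.56e-04). Slc3a2 and Slc7a5, whose proteins form 1 transporter, thus moved in opposite directions, without overlap of groups in either gene. The changes of Atf4 and Asns were small. Atf4 (log2 0.22, SE 0.07, adjusted p = 0.0184) lost its call when any of 5 of the 8 libraries was left out, was at 0.12 without normoxic osteoblast replicate 4 (adjusted p = 0.0287), at 0.07 by library size alone (adjusted p = 0.431) and at 0.16 with all 8 groups in 1 fit (adjusted p = 0.0757). The 5 libraries were proliferating replicates 1 to 3 and osteoblast replicates 1 and 2, with values of 0.18 to 0.21. Asns (log2 -0.27, SE 0.10, adjusted p = 0.0356) lost its call without osteoblast replicate 1 (-0.30, adjusted p = 0.0508), 2 (-0.30, 0.0533) or 3 (-0.26, 0.0728), and was at -0.16 without proliferating replicate 4 (adjusted p = 0.0289). Sesn2 was not called (0.12, 95% interval -0.15 to 0.39) but was called without proliferating replicate 4 (0.24, adjusted p = 0.0196). It was at 0.04 without proliferating replicate 1 (adjusted p = 0.78) and at -0.03 by library size alone (0.842). The 9 genes had a median change of 0.22, beside 0.07 for all genes tested. Thus 5 of 9 genes were called higher where 40.9% of 14434 genes tested were, 3 lower where 37.8% were, and 8 in either direction where 78.7% were.

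Smooth muscle conditions at 21% O2 brought most of the genes below their level in proliferating cells. Osteoblast markers summed to 674 to 756 against 1970 to 2700 CPM, a fall carried by Spp1 (mean 652 against 2100). The other osteoblast markers had higher means. Of neural crest markers, Tfap2a was higher (128 against 32.9 CPM) and Ets1 lower (24.5 against 85.7). The part of these in the changes was not tested. Slc7a11 was down to 0.708 ± 0.336 CPM (log2 -5.57, SE 0.42, adjusted p = 3.94e-06). Slc7a5 fell from 224 ± 7.55 to 39.9 ± 3.69 CPM (SD, n = 4 each; log2 -2.44, SE 0.07, adjusted p = 3.49e-14) and Asns from 129 ± 19.8 to 26.9 ± 1.67 CPM (log2 -2.20, SE 0.10, adjusted p = 1.5e-10). Chac1 (-1.64, SE 0.14), Sesn2 (-1.21, SE 0.15), Atf4 (-1.09, SE 0.06) and Ddit4 (-0.55, SE 0.14) were also lower, each without overlap. Slc3a2 went the other way (0.32, SE 0.05, adjusted p = 4.01e-05), and Trib3 was not called (-0.61, 95% interval -1.25 to 0.04, adjusted p = 0.0757). Trib3 was called lower without proliferating replicate 1 (-0.763, adjusted p = 0.0294), proliferating replicate 3 (-0.73, 0.0464) or smooth muscle replicate 1 (-0.79, 0.0304), with DESeq2 (-0.61, 0.0206) and with all 8 groups in 1 fit (-0.65, 0.0134). Without proliferating replicate 4 the change was -0.28 (adjusted p = 0.126). In all, 1 of 9 genes was called higher where 40.8% of 14582 genes tested were, 7 lower where 38.9% were, and 8 in either direction where 79.7% were. The median change of the 9 genes was -1.21, beside 0.03 for all genes tested.

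At 0.5% O2 the step from proliferating to chondrocyte conditions again came with higher levels of 8 of the genes, with Ddit4 as the exception. Smooth muscle markers summed to 1890 to 2260 against 191 to 195 CPM and neuron and glia markers to 72.1 to 103 against 14.8 to 17.6 CPM, the latter with Rbfox3 at 0 in both groups, and their part was not tested. Slc7a5 rose from 147 ± 5.54 to 478 ± 15.7 CPM (SD, n = 3 each; 3.24-fold, adjusted p = 4.6e-11) and Trib3 from 66.2 ± 5.3 to 187 ± 16.7 CPM (2.81-fold, adjusted p = 2.28e-09). Slc3a2 (log2 1.19, SE 0.08), Slc7a11 (0.86, SE 0.14), Chac1 (0.85, SE 0.11), Asns (0.71, SE 0.06), Atf4 (0.50, SE 0.06) and Sesn2 (0.36, SE 0.09) followed, and no pair of groups overlapped. With library size alone Sesn2 lost its call (0.03, adjusted p = 0.791), and the rises of Slc7a11, Chac1, Asns and Atf4 were 0.53, 0.52, 0.38 and 0.17, all called. Ddit4 fell from 158 ± 4.11 to 79.9 ± 2.44 CPM (log2 -0.995, SE 0.06, adjusted p = 4.3e-09), where at 21% O2 the same step had raised it (log2 1.91). The Ddit4 interaction given above tests that difference. The median change was 0.85, beside -0.02 for all genes tested. Thus 8 of 9 genes were called higher where 34.9% of 14347 genes tested were, 1 lower where 34.6% were, and 9 in either direction where 69.5% were.

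Hypoxic osteoblast cultures held more Slc3a2, Ddit4 and Atf4 than hypoxic proliferating cells. Their smooth muscle markers summed to 2160 to 2430 against 191 to 195 CPM. Osteoblast markers summed to 4980 to 5280 against 1760 to 2040 CPM. Adipocyte markers summed to 20 to 23.1 against 0.479 to 1.33 CPM, nearly all of it Fabp4 (mean 21 against 1 CPM). The part of these in the changes was not tested. Slc3a2 rose from 201 ± 4.64 to 708 ± 139 CPM (SD, n = 3 each; 3.52-fold, adjusted p = 5.52e-09), Ddit4 from 158 ± 4.11 to 371 ± 73.9 CPM (2.34-fold, adjusted p = 5.69e-07) and Atf4 from 364 ± 20.2 to 550.5 ± 87.3 CPM (1.51-fold, adjusted p = 4.4e-05), or a log2 change of 0.36 by library size alone. Slc7a11 (log2 -1.95, SE 0.14), Chac1 (-1.07, SE 0.21), Sesn2 (-0.75, SE 0.12) and Asns (-0.56, SE 0.07) were lower, without overlap. Trib3 (-0.24, adjusted p = 0.0609) and Slc7a5 (-0.02, 95% interval -0.16 to 0.12) were not called, though both were called lower with library size alone (-0.47 and -0.25), and Trib3 also without hypoxic osteoblast replicate 1 (-0.38, adjusted p = 9.15e-04), with limma-voom (-0.25, 0.0457) and with no filter on low counts (-0.24, 0.0128). Without hypoxic osteoblast replicate 3 the Trib3 change was -0.13 (adjusted p = 0.208). The median change was -0.24, beside 0.00 for all genes tested. Of the 9 genes, 3 were called higher where 36.2% of 14338 genes tested were, 4 lower where 35.1% were, and 7 in either direction where 71.3% were.

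In hypoxic smooth muscle cultures Atf4 was 3.82-fold above hypoxic proliferating cells (1276 ± 90.6 against 364 ± 20.2 CPM, SD, n = 3 each; adjusted p = 2.19e-09), or 0.66 higher on the log2 scale by library size alone, while 6 other genes were lower. Blood cell markers summed to 33 to 36.5 against 5.28 to 5.41 CPM, nearly all Cd68 (mean 35 against 5.17). Ptprc was lower (0.0927 against 0.181). Neural crest markers summed to 569 to 634 against 199 to 206 CPM. Of these Twist1 (mean 434 against 72.5) and Tfap2a (85.4 against 29.3) were higher, Ets1 lower (70.9 against 84.5) and Snai2 alike (15.4 against 15.6). Smooth muscle sums were lower (94.8 to 119 against 191 to 195 CPM). So were chondrocyte (29.3 to 37.7 against 207 to 221) and osteoblast sums (775 to 911 against 1760 to 2040). The part of these was not tested. Trib3 stood at 6.15 ± 2.35 against 66.2 ± 5.3 CPM (log2 -3.29, SE 0.21, adjusted p = 9.65e-08). Slc7a5 (-2.42, SE 0.14), Slc7a11 (-2.40, SE 0.16), Chac1 (-1.62, SE 0.13), Sesn2 (-1.10, SE 0.17) and Asns (-0.98, SE 0.08) were lower too, without overlap, and each remained lower by library size alone. Ddit4 (0.75, SE 0.08) and Slc3a2 (0.56, SE 0.08) were called higher, but lower by library size alone (-0.52 and -0.72). The median change was -1.10, beside -0.07 for all genes tested. Of the 9 genes, 3 were called higher where 33.8% of 14080 genes tested were, 6 lower where 36.2% were, and 9 in either direction where 70% were.

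**Figure D3:**
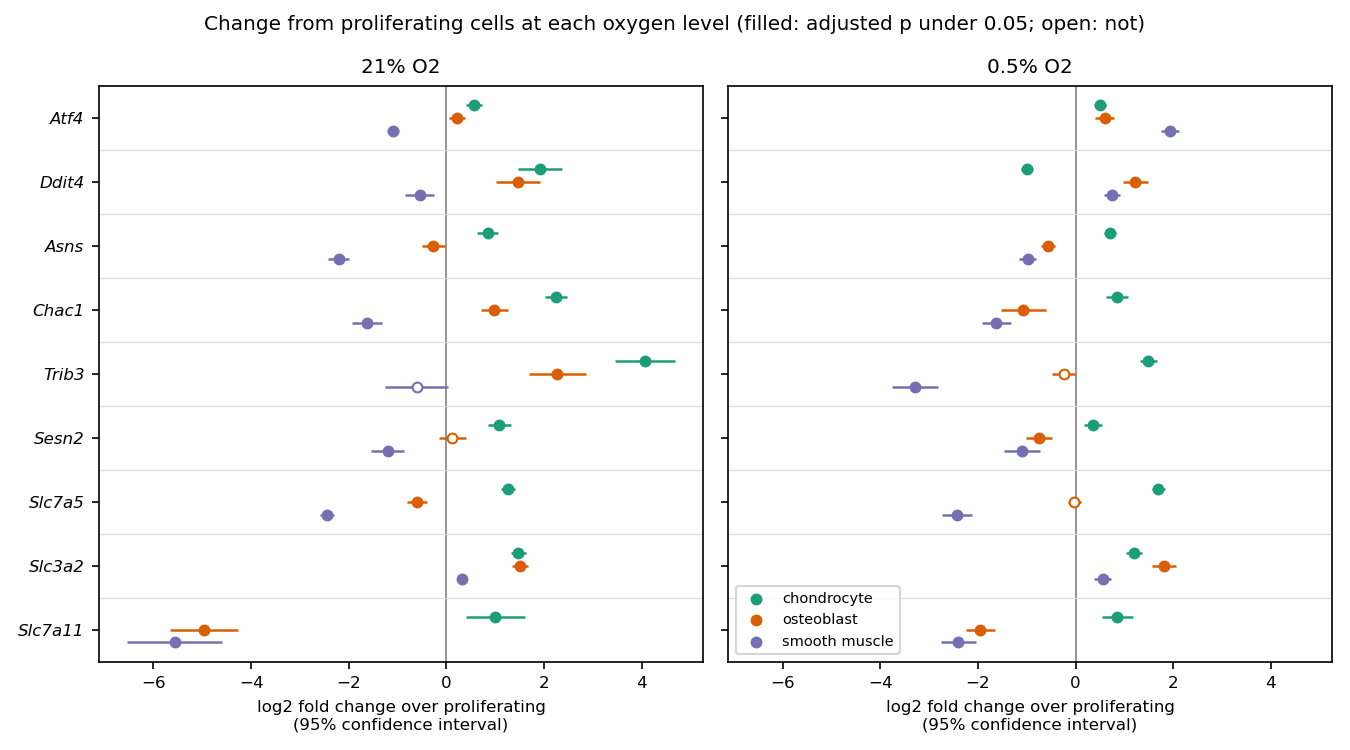
Log2 fold change of 9 genes in chondrocyte, osteoblast and smooth muscle cultures over proliferating cells at 21% O2 (left) and 0.5% O2 (right), with 95% confidence intervals, where filled points have an adjusted p under 0.05 and open points do not. Chondrocyte points lie right of 0 for all genes at 21% O2 and for all but Ddit4 at 0.5% O2, and Atf4 in smooth muscle cultures lies at -1.09 on the left and 1.93 on the right.

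Ranked by mean level over the 8 groups, 6 of the 9 genes had the 2 chondrocyte groups first and second: Asns, Chac1, Trib3, Sesn2, Slc7a5 and Slc7a11. In none of these did the ranges of the 2 chondrocyte groups separate, and for Slc7a11 each range overlapped the next down to normoxic proliferating cells. By library size alone Sesn2 was as high in hypoxic proliferating libraries (46.8 to 50.8 CPM) as in normoxic chondrocyte libraries (42.8 to 48.5 CPM). Atf4 and Ddit4 were highest in other hypoxic groups, Atf4 in smooth muscle (1276 ± 90.6 CPM) and Ddit4 in osteoblast cultures (371 ± 73.9 CPM), and Slc3a2 in osteoblast cultures as well (708 ± 139 CPM), each with no overlap with the group next below on the TMM scale. By library size alone the ranges of Atf4 in hypoxic smooth muscle (605 to 733 CPM) and hypoxic osteoblast libraries (485 to 633 CPM) overlapped. On the TMM scale normoxic smooth muscle was last for Atf4, Ddit4, Asns, Chac1, Trib3, Sesn2 and Slc7a11, although its range overlapped that of hypoxic smooth muscle libraries for Trib3 and that of normoxic osteoblast libraries for Slc7a11. By library size alone hypoxic smooth muscle was last instead for Trib3 (1.87 to 4.39 against 5.92 to 9.96 CPM), Asns (31.4 to 35.2 against 32.5 to 37.1 CPM), Chac1 (4.22 to 4.88 against 4.33 to 5.68 CPM) and Sesn2 (7.23 to 12.5 against 9.01 to 14.5 CPM), and of these the ranges separated for Trib3 alone. From lowest to highest TMM-scaled group mean the span was 4.36-fold for Slc3a2, 5.59-fold for Sesn2, 8.4-fold for Asns, 9.09-fold for Atf4, 14.5-fold for Chac1, 20.2-fold for Slc7a5, 32.4-fold for Trib3, 34.5-fold for Ddit4 and 137-fold for Slc7a11.

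Ratios between 2 genes of the same library do not depend on the scaling between libraries. Per kb of exon, the ratio of Atf4 to Asns counts was 2.82 ± 0.287 in normoxic and 3.07 ± 0.136 in hypoxic proliferating libraries, and 2.3 ± 0.199 and 2.66 ± 0.0226 in chondrocyte libraries (SD, n = 4 normoxic and 3 hypoxic). It was 3.91 ± 0.254 and 6.83 ± 0.878 in osteoblast libraries. In smooth muscle libraries it was 6.05 ± 0.27 at 21% O2 and 23.1 ± 0.939 at 0.5% O2, so Atf4 and Asns mRNA changed unequally there whatever the scaling. The ratio of Atf4 to Trib3 counts per kb was 17.3 to 26.8 in normoxic and 150.3 to 312 in hypoxic smooth muscle libraries. It was 2.34 to 2.78 across all 7 chondrocyte libraries. In proliferating libraries it went the other way, from 19.3 to 41.52 at 21% O2 to 4.801 to 5.253 at 0.5% O2. In osteoblast libraries the ranges overlapped (6.425 to 9.05 and 6.537 to 12.23).

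The transporter chains Slc3a2 and Slc7a5 also drifted apart within libraries. Their ratio per kb was 0.733 to 0.795 in normoxic proliferating and 0.864 to 0.915 in normoxic chondrocyte libraries (counts divided by the merged exon bases of each gene, which pool all isoforms). It was 1.36 to 1.53 in hypoxic proliferating and 0.871 to 1.17 in hypoxic chondrocyte libraries. In osteoblast libraries it was 3.17 to 3.58 at 21% O2 and 4.28 to 6.23 at 0.5% O2, and in smooth muscle libraries 4.7 to 5.93 and 8.03 to 14.9. The hypoxic range was above the normoxic range in proliferating, osteoblast and smooth muscle libraries and overlapped it in chondrocyte libraries.

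**Figure D4:**
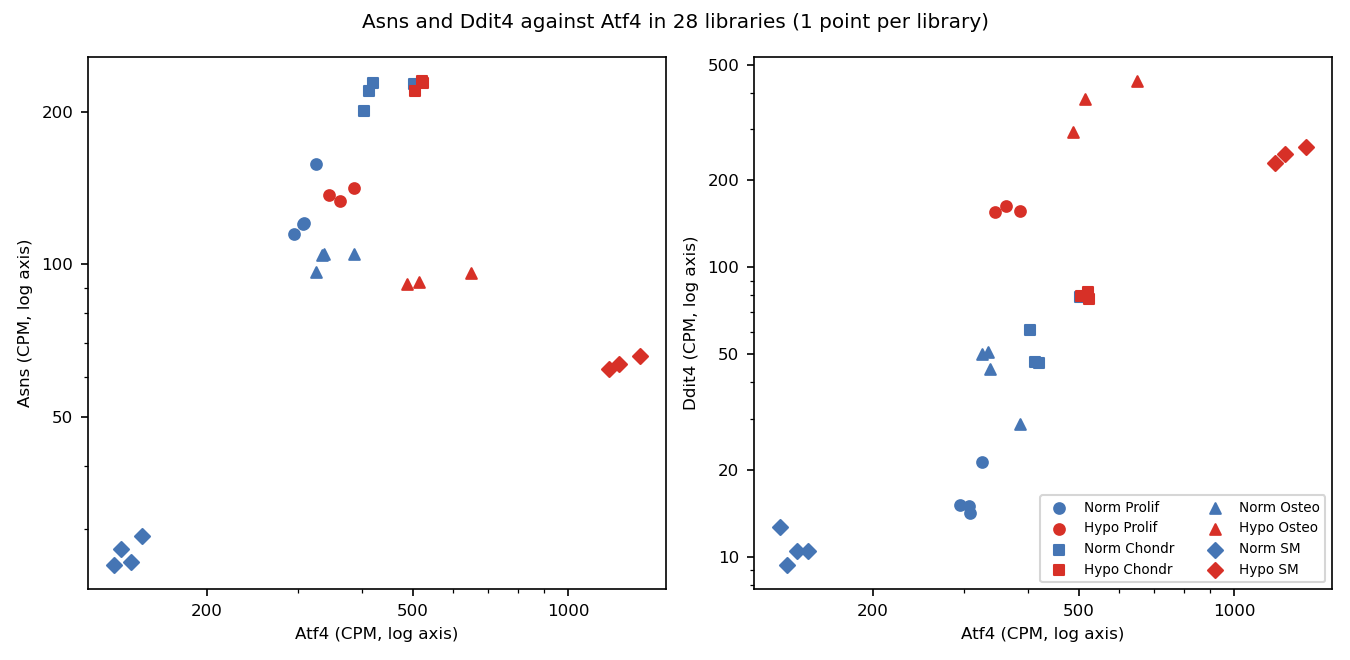
Asns (left) and Ddit4 (right) against Atf4 in CPM on log axes, 1 point per library, with color for oxygen and marker shape for culture condition. The 3 hypoxic smooth muscle libraries have the highest Atf4 and Asns of 62.3 to 66 CPM, below all proliferating, chondrocyte and osteoblast libraries, while their Ddit4 is below that of hypoxic osteoblast libraries alone.

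Across the 28 libraries, which share group structure and depth, Pearson r of log2 CPM was between 0.795 and 0.945 for the pairs among Asns, Chac1, Trib3, Sesn2 and Slc7a5, a subset picked after the values were seen. Slc7a11 had r of 0.824 with Asns and 0.805 with Sesn2, and between 0.0869 and 0.689 with the other genes. Atf4 followed Ddit4 more closely (r = 0.804) than Asns (r = 0.411) or Trib3 (r = 0.219). Over the 25 libraries outside hypoxic smooth muscle, r with Atf4 was 0.79 for Ddit4, 0.85 for Asns and 0.821 for Trib3. These coefficients describe these libraries and are given without a test, since the points fall into 8 groups. Among 12921 other genes of at least 1 CPM on average, those most like Asns over the 28 libraries were Apobr (r = 0.968), Mthfd2 (0.953), a mitochondrial one-carbon enzyme, Dusp14 (0.932), Yars (0.925), the tyrosyl-tRNA synthetase, and Bcat1 (0.919), a branched-chain aminotransferase. Those most like the mean z score of the 9 genes included Pkp1 (0.955), Ghitm (0.953), Zbtb7b (0.949) and Sat1 (0.929).

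Wider pathway lists were counted in the same fits. At 0.5% O2, 33.1%, 10.4%, 27% and 35.4% of all genes tested were called higher, and 32.3%, 11.8%, 27.3% and 40.2% lower, in proliferating, chondrocyte, osteoblast and smooth muscle cultures, so a list with shares near these does not stand out. Between oxygen levels the 12 HIF target genes, which mark the response to low oxygen itself, were called higher in 12 of 12 in proliferating (median log2 4.58), 11 of 12 in chondrocyte (1.66), 12 of 12 in osteoblast (3.32) and 12 of 12 in smooth muscle cultures (3.98). The most raised was Car9 in proliferating (6.61) and smooth muscle cultures (6.41), a carbonic anhydrase, and Ankrd37 in chondrocyte (2.37) and osteoblast cultures (4.87). In normoxic chondrocyte against normoxic proliferating cells, 11 of these 12 genes were also called higher (median 2.04), beside the 9 ATF4 response genes, and the part of that rise in the result was not tested.

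Among ATF4 partner and related bZIP factors, 6 of 7 tested in proliferating cells were called higher, where 33.1% of all genes were, and none lower at 0.5% O2 (median 0.60), led by Nupr1, a stress-induced transcriptional regulator (log2 1.71, SE 0.14, adjusted p = 1.1e-07). Of 8 tested, 1 was higher in chondrocyte cultures (median 0.18), Cebpg, a dimer partner of ATF4 (0.27, adjusted p = 0.00938). In osteoblast cultures 4 were higher and 1 lower (median 0.17), led by Atf3 (3.66, SE 0.30), a stress-induced ATF family member, and Nupr1 (-1.05, SE 0.20). In smooth muscle cultures 6 were higher and 2 lower (median 1.54), led by Atf3 (3.79, SE 0.25) and Jdp2 (-1.95, SE 0.17). In normoxic chondrocyte against proliferating cells 7 of 8 were higher (median 1.78) where 37.7% of all genes tested were, led by Nupr1 (3.76, SE 0.16). Over all genes tested, the median changes at 0.5% O2 were 0.01, -0.01, -0.03 and -0.12 in proliferating, chondrocyte, osteoblast and smooth muscle cultures, the order kept in the rest of the lists.

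The list of 10 kinases and regulators of eIF2 phosphorylation was called in both directions, 3 higher and 5 lower, 1 and 0, 2 and 3, and 4 and 5 (medians -0.12, -0.04, 0.05 and -0.12). Ppp1r15a, which encodes the stress-induced eIF2 phosphatase subunit GADD34, had the largest rise of the list in each of the 4 conditions. Its log2 changes were 1.41 (SE 0.09) in proliferating, 0.77 (SE 0.12) in chondrocyte, 1.75 (SE 0.12) in osteoblast and 4.32 (SE 0.61) in smooth muscle cultures. The largest falls were those of Impact in proliferating (-0.815, SE 0.07), of the kinase gene Eif2ak3 (PERK) in osteoblast (-0.91, SE 0.13) and of Eif2ak2 (PKR) in smooth muscle cultures (-2.50, SE 0.13).

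Of the 7 serine and one-carbon genes, 3 were higher and 3 lower in proliferating cells (median 0.06), where 33.1% and 32.3% of all genes tested were, led by Aldh1l2 (2.90) and Shmt2 (-0.57), both of mitochondrial folate metabolism. In chondrocyte cultures 3 were higher and 1 lower (median 0.04; Mthfd1l, 0.65, and the serine synthesis gene Psat1, -0.45). In osteoblast cultures the counts were 3 and 1 (median 0.20; Mthfd1l, 2.39, and Psat1, -0.45), and in smooth muscle cultures 4 and none (median 0.79; Mthfd1l, 4.11). Of 7 proline, alanine, aspartate and cysteine enzymes tested, 4, 3 and 5 were higher in proliferating, chondrocyte and osteoblast cultures with none lower (medians 0.96, 0.21 and 0.92). The leading genes were Cth (1.48), which makes cysteine from cystathionine, the glutamine synthetase gene Glul (0.69) and again Cth (1.52). In smooth muscle cultures 2 were higher and 4 lower (median -0.80), led by Got1 (0.82) and the proline synthesis gene Pycr1 (-1.63).

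The 19 cytosolic aminoacyl-tRNA synthetases were called 7 higher and 8 lower, 4 and 0, 9 and 1, and 8 and 7 (medians -0.06, 0.06, 0.34 and 0.11). Sars, the seryl-tRNA synthetase, led the rises in proliferating (0.70), osteoblast (0.78) and smooth muscle cultures (2.68), and Wars in chondrocyte cultures (0.32). Vars (-0.95), Aars (-0.32) and Wars (-1.16) had the largest falls in the same 3 conditions. Against normoxic proliferating cells, 19 of 19 synthetases were lower in normoxic smooth muscle (median -1.40), 18 of 19 in osteoblast (median -0.91) and 11 in chondrocyte cultures (median -0.25), where 6 were higher. Of all genes tested 38.9%, 37.8% and 37.2% were lower in these comparisons (medians 0.03, 0.07 and -0.00), and 37.7% were higher in the last.

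Other amino acid transporters at 0.5% O2 were called 3 higher and 5 lower of 8 tested in proliferating cells (median -0.23; Slc1a4, 0.76, and Slc38a1, -1.19). They were called 4 and 2 of 11 in chondrocyte cultures (median 0.16; Slc7a3, 0.95, and Slc43a2, -0.51) and 6 and 4 of 11 in osteoblast cultures (median 0.38; Slc38a1, 1.43, and Slc7a2, -2.50). In smooth muscle cultures 0 were higher and 8 of 10 lower (median -0.96), and the largest fall was that of Slc7a2, at 24 ± 1.18 CPM in normoxic (SD, n = 4) and 0 counts in all 3 hypoxic libraries. Stress hormones and growth regulators were called 6 higher and none lower of 7, 2 and 2 of 9, 2 and 1 of 8 and 3 and 2 of 8 (medians 0.78, 0.04, -0.38 and 0.33). Vldlr, a lipoprotein receptor, led the rises in all of them (3.66, 0.99, 2.07 and 2.68), and Avil (-1.41), the arginine sensor gene Castor1 (-1.09) and Sesn1 (-3.02) led the falls in chondrocyte, osteoblast and smooth muscle cultures.

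Genes of endoplasmic reticulum stress outside the ATF4 arm were called 5 higher and 1 lower of 10 in proliferating cells (median 0.25; Xbp1, 0.97, and Dnajc3, -0.74) and 4 and 0 in chondrocyte cultures (median 0.17; Hspa5, 0.46). They were called 0 and 4 in osteoblast (median -0.35; Sdf2l1, -1.72) and 2 and 6 in smooth muscle cultures (median -0.32; Dnajb9, 0.995, and Pdia4, -2.17). In normoxic chondrocyte against proliferating cells 9 of these 10 were higher and 1 lower (median 0.93), where 37.7% and 37.2% of all genes tested were. The 8 NRF2 target genes were called 2 higher and 5 lower, 1 and 5, 2 and 5, and 2 and 2 (medians -0.32, -0.37, -0.63 and -0.22). Slc7a11, also an NRF2 target, rose in osteoblast and smooth muscle cultures, and the part of NRF2 in that rise was not tested. Gclc, the catalytic subunit of glutathione synthesis, led the NRF2 targets in osteoblast cultures (1.80) and Hmox1, a haem oxygenase, in the other three (2.46, 0.72 and 1.34), while Gsr (-0.70), Nqo1 (-1.202), Srxn1 (-1.25) and Srxn1 (-0.84) had the largest falls. With library size alone, every change between the smooth muscle groups is lower by about the shift given above.

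**Figure D5:**
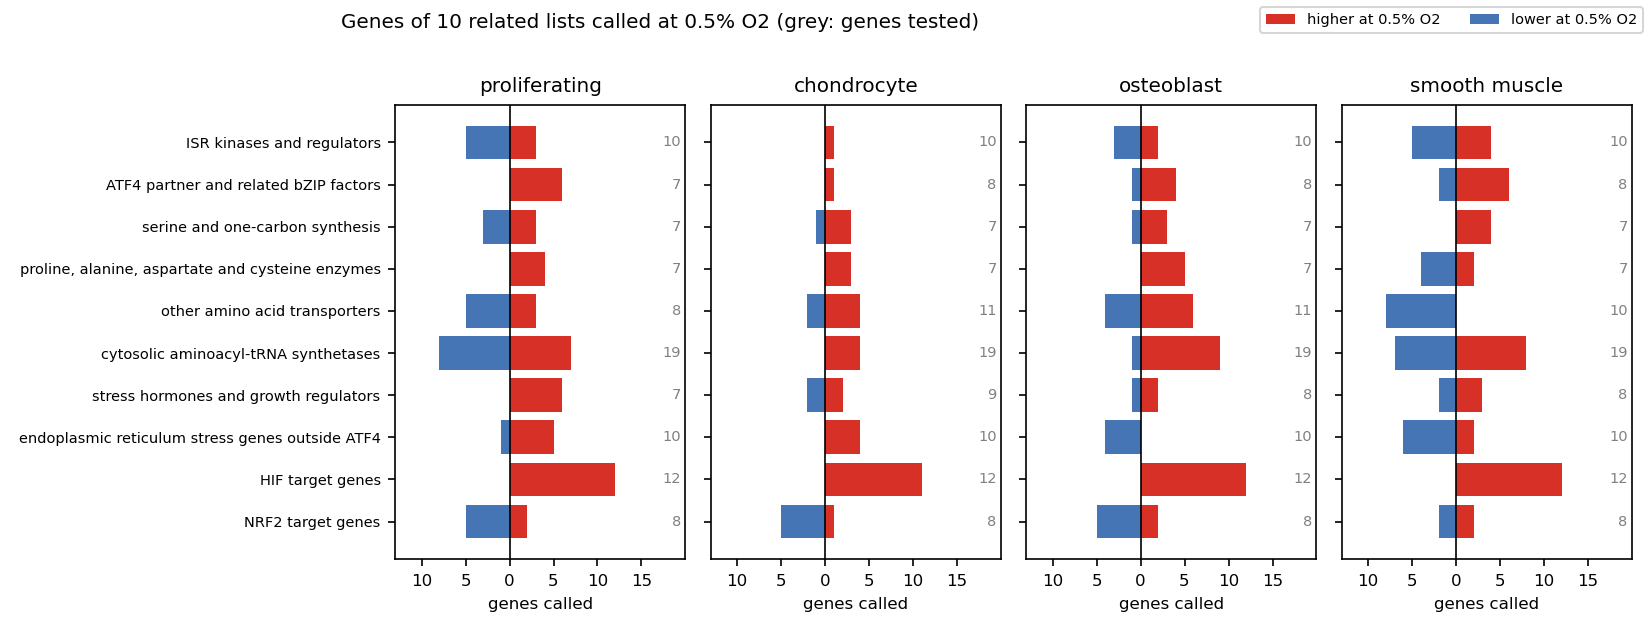
Number of genes of 10 lists called higher (red, to the right) or lower (blue, to the left) at 0.5% O2 in each culture condition, with the number tested in grey. HIF targets are called higher almost throughout. Of the ATF4 partner factors, 1 of 8 is called in chondrocyte cultures, where 22.2% of all genes tested were called in either direction.

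In the authors' deposited tables, the log2 fold changes of the 9 genes in the 10 pairwise comparisons had the same sign as those above in 90 of 90 values. The largest difference between the authors' deposited tables and the values given here was 0.135 on the log2 scale.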

How the data were processed

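Whole-number read counts per gene, deposited by the authors for 28 libraries, were used. The authors' deposited comparison tables hold log2 fold changes and p-values, per the file headers; 70 columns of per-library values there were not used. HISAT2 2.0.5, StringTie 1.3.3b, featureCounts 1.5.0-p3 and mm10 are named in the submitters' processing notes, without roles; annotation and use of strand in counting are not given in the sources used here.

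Each pair of groups was fitted alone with edgeR 4.0.16 (R 4.3.3): TMM scaling, filterByExpr (minimum count 10, total 15), robust quasi-likelihood test, two-sided, Benjamini-Hochberg adjustment over all genes tested, called at adjusted p under 0.05. Interactions used 4 groups. SE was taken from the F statistic. Alternatives were DESeq2 1.42.0, limma 3.58.1, other scalings and filters, all groups in 1 fit, a replicate block and each library left out. The block used replicates 1 to 3 wherever a hypoxic group took part. Tests were checked on simulated data. The members and lists were chosen with earlier results of these data known. All members are named. Of each list, the called gene with the largest rise and the largest fall is named, and by likeness the 5 genes with the highest r over log2 CPM (prior count 2), of which 1 is not reported here. Precision is limited by 3 or 4 libraries per group.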

Additional observations from a re-analysis of the deposited data

Results flagged for a closer look

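Of 36 sets of 4 normoxic libraries (9 genes in 4 groups), 9 held 1 library whose gap to its nearest neighbour, divided by the range, exceeded Dixon's 95% critical value; chance gives about 1 in 20. Normoxic proliferating replicate 4 was the high library for 3 genes, at 21.18 CPM for Ddit4, 158 CPM for Asns and 57.71 CPM for Slc7a11. Normoxic chondrocyte replicate 4 was high for Atf4 (504.2 CPM) and Trib3 (172.3 CPM). Normoxic osteoblast replicate 4 was low for Slc7a5 (115.2 CPM) and Slc3a2 (392.1 CPM), and replicate 3 of that group was low for Asns (96.44 CPM). Normoxic smooth muscle replicate 2 was high for Slc7a11 (1.209 CPM).

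The effect of oxygen on log2 expression differed from that in proliferating cells in 18 of 27 interaction tests (edgeR quasi-likelihood, Benjamini-Hochberg): 5 of 9 genes in chondrocyte, 7 of 9 in osteoblast and 6 of 9 in smooth muscle cultures, where 43.5%, 54.2% and 70.4% of all genes tested were called. In chondrocyte cultures the difference was -2.879 for Ddit4, -1.363 for Chac1, -2.552 for Trib3, -0.6981 for Sesn2 and 0.4632 for Slc7a5. In osteoblast cultures it was 0.4218 for Atf4, -2.006 for Chac1, -2.474 for Trib3, -0.8308 for Sesn2, 0.6207 for Slc7a5, 0.3527 for Slc3a2 and 3.052 for Slc7a11. In smooth muscle cultures it was 2.998 for Atf4, 1.277 for Ddit4, 1.198 for Asns, -2.708 for Trib3, 0.2212 for Slc3a2 and 3.142 for Slc7a11, of which Ddit4, Asns and Slc3a2 change sign by library size alone.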

How the results depend on the processing

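Over 117 gene-by-comparison results, 2061 alternative values were computed: 1954 kept their side of the threshold, of which 38, none of them called, changed sign, 51 lost the call, 45 gained one and 11 reversed. Among 1008 values with 1 library left out, 33 lost and 17 gained a call, and 26 that were not called changed sign. Without mt-Rnr1, mt-Rnr2 and Rn7sk all 117 kept their side. The 11 reversals, changes of sign where at least 1 of the values compared was called, came with library size alone. Asns, Chac1 and Sesn2 between smooth muscle groups were not called by library size alone. Nor were Ddit4 and Asns in the smooth muscle interaction. Between smooth muscle groups the reversals were Asns -0.05876, Chac1 -0.09838, Trib3 -1.202, Sesn2 -0.4085 and Slc3a2 -0.8298. Between hypoxic smooth muscle and proliferating groups they were Ddit4 -0.5229 and Slc3a2 -0.7183, and in the smooth muscle interaction Ddit4 -0.05437, Asns -0.1347, Sesn2 -1.246 and Slc3a2 -1.115. The median of all genes moved by a like amount there, as given above.

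With a log2 change of at least 1 also required, genes called fell to 2628 (from 9261) in proliferating, 891 (3157) in chondrocyte, 3252 (7890) in osteoblast and 7372 (11271) in smooth muscle cultures between oxygen levels, and members called to 3, 0, 2 and 5. Against proliferating cells genes called were 5069 (10760), 6387 (11359) and 5727 (11626) at 21% O2 and 4567 (9975), 4912 (10227) and 5839 (9858) at 0.5% O2 for chondrocyte, osteoblast and smooth muscle cultures. Members called were then 4 for normoxic osteoblast and 3 and 4 for hypoxic chondrocyte and osteoblast cultures. Chondrocyte and osteoblast interactions kept 2153 (6654) and 4128 (8394) genes and 3 members each. The threshold itself removes these.

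Between chondrocyte groups, where 1 member was called, DESeq2 called 4, limma-voom 2, library size alone 0 and no filter on low counts 2. The shares of all genes called in these fits are not given here. With 1 library left out members called were 0 to 3 and genes called 2091 (without hypoxic chondrocyte replicate 3) to 3359. The cause was not tested.

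Replicate numbers did not pair the samples: correlations of same-numbered deviations were -0.0566 to 0.0814, and in 0 of 10 comparisons were all above 0.1. The replicate block kept replicates 1 to 3 wherever a hypoxic group took part, so normoxic replicate 4 was left out there as well. With it, 3 members were called between chondrocyte groups, beside 2790 genes in all (3157 in the main fit). Of 117 results, 107 kept their side of the threshold. The call was lost by 2, Slc3a2 in the osteoblast (0.2568) and smooth muscle (0.1832) interactions, and 8 gained one. Those 8 were Asns (0.2559) and Slc7a11 (0.9597) between proliferating groups, Atf4 (0.3227) and Ddit4 (0.6366) between chondrocyte groups, Asns (-0.1992) and Slc7a11 (-0.5491) in the chondrocyte interaction, and Ddit4 (-0.5192) and Asns (-0.3566) in the osteoblast interaction. Between proliferating groups, Asns (0.2564) and Slc7a11 (0.9656) were also called without normoxic replicate 4 alone. So were Atf4 (0.3226) and Ddit4 (0.6272) between chondrocyte groups. For these values the block and the loss of that library cannot be told apart. In the interactions the block left out replicate 4 of both normoxic groups. Low counts limit Slc7a11 in normoxic osteoblast and smooth muscle cultures and Trib3 in hypoxic smooth muscle cultures (39 to 110 counts).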
